A study of Mus musculus with 8 samples.

Results

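Aminoacyl-tRNA synthetases and the enzymes that make serine, glycine, asparagine and one-carbon units were followed by RNA-seq in splenic CD8+ T cells, together with the stress factor *Atf4* and 3 of its known targets. The 47 genes were taken by symbol from 48321 genes in the count tables. They comprise 20 cytosolic synthetases, 15 mitochondrial synthetases, 8 enzymes of amino acid and one-carbon synthesis, and *Atf4*, *Chac1*, *Trib3* and *Sesn2*. All 47 passed the filter on low counts, which kept 12597 genes for testing. The libraries came from sorted peripheral CD8+ T cells of C57BL/6 spleens, and each of the 4 groups (WT day 0, KO day 0, WT day 5 and KO day 5) held 2 libraries. Day 5 cells had been cultured in vitro. The submitters describe the model as *Satb1* F/F with *E8I-cre*, a recombinase driven by a CD8 enhancer. SATB1 is a nuclear protein that organises chromatin in T cells. Whether the WT animals carried floxed alleles or the Cre, the age of the animals, and the stimulus and medium of the culture are not given by the labels.

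A synthetase joins one amino acid to its tRNA before translation. Most are encoded by separate nuclear genes for the cytosol and for mitochondria, and part of the cytosolic enzymes sit in a multisynthetase complex. T cells leaving quiescence are known for a rise in protein synthesis and in serine-driven one-carbon metabolism. Atf4 is a transcription factor made when the translation factor eIF2 is phosphorylated under stress or amino acid shortage. It is known to act at C/EBP-ATF response elements of synthetase and amino acid genes.

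The totals ran from 4170126 to 11117971 counts per library, and levels below are CPM, the count of a gene scaled to a library total of 1000000 after TMM scaling of the totals. Replicates differed by more than counting noise in every group. *Satb1* itself, the targeted gene, went against the KO label at day 0. Its counts there were 547 and 405 in WT and 1680 and 680 in the KO libraries, a log2 difference of 0.51 ± 0.15 (SE) that did not pass the test (FDR 0.125). At day 5 it was lower in the libraries labelled KO, by 0.84 ± 0.15 on the log2 scale (FDR 0.0162). The KO group is therefore called by its label throughout, and every genotype direction below rests on that label. CD8 and CD3 transcripts summed to 9521 to 10683 CPM at day 0 and to 6160 to 6871 CPM at day 5. Most markers of other cells were near 0. *Klra8* had no count in any library, *Ms4a1* had 0 to 2 counts, and *Cd79b* made nearly all of a B cell sum of 67.6 to 167.9 CPM. A gamma delta T cell list summed to 62.2 to 160.0 CPM at day 0 and 321.2 to 611.4 CPM at day 5, without overlap between days. Its part in the results below was not tested. In bulk RNA, fewer cells of a type and less RNA per cell cannot be told apart.

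The letters of the C/EBP-ATF element were looked for in promoters because most of the genes described here moved in one direction during culture. RefSeq promoters of GRCm38.p6, from 250 bases before to 50 after the start, were matched for 38 of the 47 genes. *Cars*, *Hars*, *Lars*, *Nars*, *Rars*, *Vars*, *Wars*, *Hars2* and *Pars2* were not matched. TGATGNAA on either strand was present in 8 of the 38 (21.1%). Among all 32851 mouse promoters 3.97% held it. By gene, 4.51% of the 27025 genes with a promoter did, and 2.79% of the 8627 tested genes with a promoter. It was found in 5 of 13 cytosolic synthetases, 0 of 13 mitochondrial synthetases, 1 of 8 enzymes, and 2 of the 4 genes of the *Atf4* group. The 8 windows below, 1 for each of these genes and not every match, run 5′ to 3′ on the strand of the gene. Capitals mark the 8 matched letters, which read TTNCATCA where the match is on the opposite strand.
Asns, chr6:7693215-7693242, minus strand: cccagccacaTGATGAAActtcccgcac
Aars, chr8:111033841-111033868, plus strand: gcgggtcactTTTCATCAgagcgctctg
Gars, chr6:55037961-55037988, plus strand: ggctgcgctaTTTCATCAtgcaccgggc
Iars, chr13:49682127-49682154, plus strand: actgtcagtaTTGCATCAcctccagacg
Tars, chr15:11399656-11399683, minus strand: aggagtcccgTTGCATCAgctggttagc
Yars, chr4:129189896-129189923, plus strand: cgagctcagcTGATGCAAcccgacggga
Chac1, chr2:119351039-119351066, plus strand: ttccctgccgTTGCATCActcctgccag
Trib3, chr2:152344029-152344056, minus strand: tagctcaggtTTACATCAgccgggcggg

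Counted from the RefSeq start, the first matched base lay at -193 in *Chac1* and between -30 and 15 in the other windows shown. In the windows shown, the matched letters of *Asns*, *Aars*, *Iars* and *Yars* lay within an annotated exon of the gene in GENCODE M21, and those of *Gars*, *Tars*, *Chac1* and *Trib3* did not. A match is a run of letters and not evidence of binding. The element was chosen after the expression values had been seen, so its shares are descriptive.

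Culture was the larger contrast. Summed over the 47 genes, the level was 4682 to 5176 CPM in the 4 day 0 libraries and 8442 to 10611 CPM in the 4 day 5 libraries, without overlap. The WT day 5 libraries were the least alike, with 10611 CPM in replicate 1 and 8442 CPM in replicate 2, and leaving out one or the other gave 27 or 33 called genes in WT in place of 30. Between day 0 and day 5 in WT, 26 of the 47 genes rose, 4 fell and 17 did not pass the test (edgeR quasi-likelihood test, FDR under 0.05). Across all tested genes 24.7% rose and 23.6% fell, so 48.3% were called. In the libraries labelled KO, 28 rose, 3 fell and 16 did not pass, beside 26.2% and 24.0% of all tested genes (50.2% called). The median log2 fold change of the 47 genes was 0.52 in WT and 0.65 in KO, where the medians of all tested genes were -0.04 and -0.05. The 4 roles differed in their counts, as set out below.

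**Figure D1:**
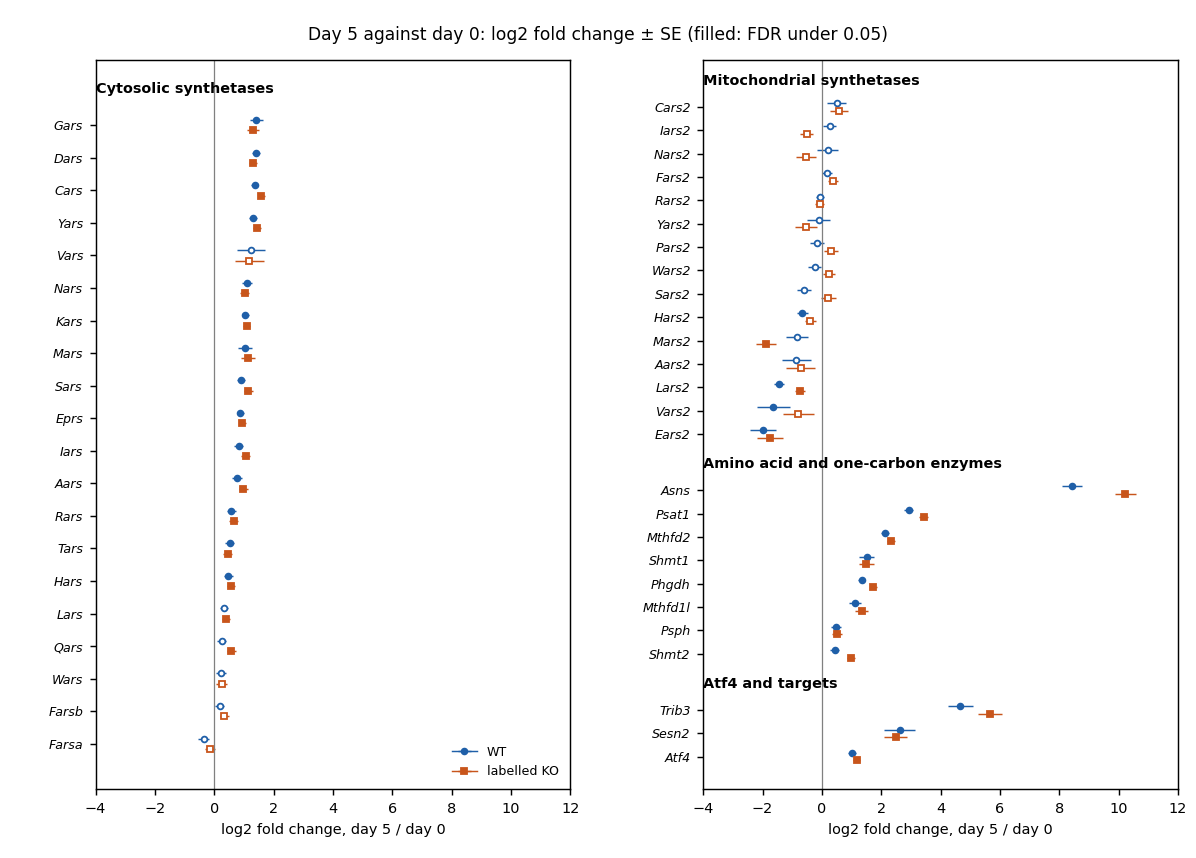
Log2 fold change of day 5 over day 0 (horizontal axis) with its SE for 46 of the genes, grouped by role, in WT (blue circles) and in libraries labelled KO (orange squares). *Chac1* is left out because its day 0 counts were at or under the floor of 3. Filled points passed an FDR of 0.05. Of the synthetases, the filled points lie to the right of 0 for the cytosolic and to the left of 0 for the mitochondrial enzymes. The share of mitochondrial enzymes that fell was near that of all tested genes.

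The cytosolic synthetases charge the tRNAs used for nuclear-encoded proteins, and *Gars* and *Kars* also supply the mitochondrial form of their enzyme. In WT, 14 of the 20 rose, none fell, and the median log2 fold change was 0.85. In KO, 16 of the 20 rose, none fell, and the median was 1.0. Scaling by library totals alone, which shifted the median of all tested genes by -0.14 in WT and -0.18 in KO, gave medians of 0.71 and 0.81, and *Farsa* then passed the test as lower in WT. Their summed level went from 3704 to 4052 CPM at day 0 to 6368 to 8004 CPM at day 5. *Vars*, *Wars*, *Farsa* and *Farsb* passed the test in neither genotype, and *Lars* and *Qars* passed it in KO but not in WT, a difference between genotypes that did not pass its own test (interaction FDR 0.951 and 0.544). *Farsa* and *Farsb* encode the 2 kinds of subunit of the cytosolic phenylalanine enzyme, and their log2 fold changes in WT were -0.37 ± 0.17 and 0.18 ± 0.15 (SE). *Vars* was low, at 2.86 to 9.28 CPM in the group means, with a log2 fold change of 1.23 ± 0.48 in WT (FDR 0.0511).

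*Gars*, the glycine enzyme (chromosome 6, 55038007 to 55079500, plus strand of GRCm38), had the largest rise of the group in WT. It stood at 18.6 and 23.5 CPM in WT at day 0 and 64.2 and 46.7 CPM at day 5. The KO libraries gave 18 and 23.1 CPM, then 52.6 and 48.1 CPM. All day 5 values lay above all day 0 values, and the log2 fold changes were 1.41 ± 0.22 in WT (FDR 0.000182) and 1.31 ± 0.21 in KO (FDR 0.000249).

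*Dars*, the aspartate enzyme of the multisynthetase complex (chromosome 1, 128363707 to 128417368, minus strand), was among the most abundant. WT libraries held 420 and 417 CPM at day 0 and 1221 and 981 CPM at day 5, and KO libraries 435 and 386 CPM, then 940 and 1085 CPM. The days did not overlap, with log2 fold changes of 1.40 ± 0.13 in WT (FDR 3.38e-06) and 1.30 ± 0.13 in KO (FDR 5.57e-06).

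*Cars*, the cysteine enzyme (chromosome 7, 143557230 to 143600090, minus strand), went from 94.3 and 111 CPM to 266 and 257 CPM in WT. In KO it went from 94.4 and 101 CPM to 293 and 292 CPM. Its log2 fold changes were 1.35 ± 0.13 in WT (FDR 2.79e-06) and 1.58 ± 0.13 in KO (FDR 5.59e-07), and again no day 5 value reached down to a day 0 value.

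The other 11 cytosolic synthetases that rose in WT lay between 0.47 (*Hars*) and 1.32 (*Yars*, the tyrosine enzyme) on the log2 scale. By place in the cell, 6 of the 8 synthetases of the multisynthetase complex rose in WT and 8 of 8 in KO. Of the 12 outside it, 8 rose in each genotype. The medians were 0.85 inside and 0.84 outside in WT, and 1.0 and 1.0 in KO. Per kilobase of exon, *Nars* and *Dars* had the highest levels of the 47 genes at both days. Their WT means were 142 and 96 CPM per kb at day 0 and 303 and 253 CPM per kb at day 5. *Nars* charges the asparagine tRNA, and its libraries at day 5 in WT were the most unlike, at 356 and 251 CPM per kb. Part of the exon length of *Aars* (14.3%) is shared with *Exosc6* on the same strand and 7.97% of *Hars* with *Hars2*, and reads there may not have been assigned to one gene.

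**Figure D2:**
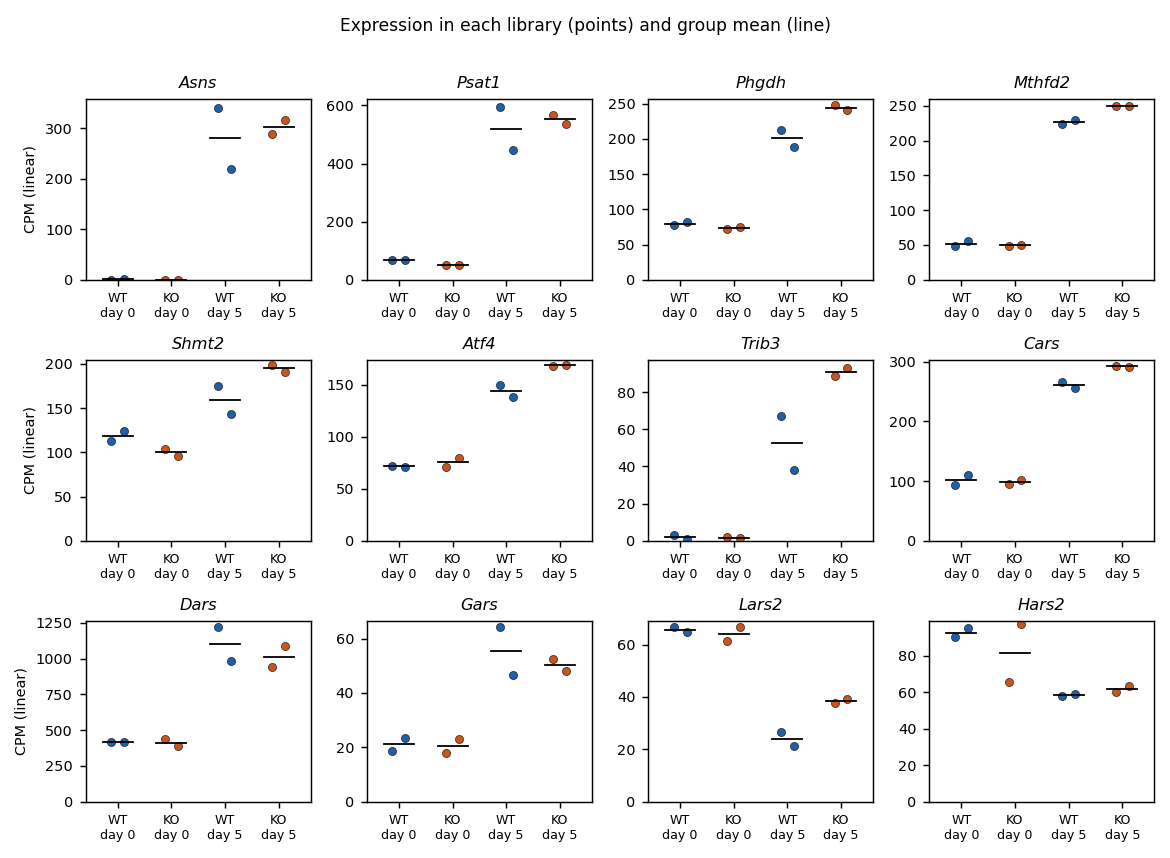
CPM on a linear axis from 0 in each of the 8 libraries (points) with the group mean (line) for 12 genes. In all panels but *Lars2* and *Hars2* the 4 day 5 libraries lie above the 4 day 0 libraries, and in those they lie below.

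The mitochondrial synthetases, which charge the tRNAs of the mitochondrial genome, did not move with the cytosolic group. None of the 15 rose in either genotype, though under alternatives *Fars2*, for phenylalanine, passed as higher in KO (with DESeq2 size factors, with libraries thinned to the smallest total, and without WT day 5 replicate 1), as did *Cars2*, for cysteine, without KO day 0 replicate 1. In WT 4 fell (*Ears2*, *Lars2*, *Hars2* and *Vars2*), 11 did not pass the test, and the median was -0.24. In KO 3 fell (*Ears2*, *Lars2* and *Mars2*), 12 did not pass, and the median was -0.52. The shares that fell, 26.7% in WT and 20.0% in KO, were near the 23.6% and 24.0% of all tested genes. They do not set these genes apart. That none rose stands beside 24.7% and 26.2% of all tested genes. Scaled by library totals alone, 6 fell in WT and 5 in KO, with medians of -0.38 and -0.70. These genes summed to 467 to 529 CPM at day 0 and 386 to 459 CPM at day 5.

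*Lars2*, the mitochondrial leucine enzyme (chromosome 9, 123366927 to 123462666, plus strand), was at 66.7 and 64.7 CPM in WT at day 0 and at 26.5 and 21.4 CPM at day 5. In KO it was at 61.3 and 66.8 CPM, then 37.5 and 39.2 CPM. It fell by 1.45 ± 0.17 in WT (FDR 1.91e-05) and by 0.74 ± 0.16 in KO (FDR 0.00222) on the log2 scale. The day 5 values of the 2 genotypes did not overlap, while the day 0 values did.

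*Hars2*, the mitochondrial histidine enzyme, had 90.3 and 95 CPM in WT at day 0 and 57.9 and 59.0 CPM at day 5. KO libraries held 65.6 and 97.1 CPM, then 59.97 and 63.4 CPM. It fell by 0.66 ± 0.18 in WT (FDR 0.00912), and its log2 fold change in KO was -0.39 ± 0.18 (FDR 0.0878). The KO day 0 library at 65.6 CPM stood apart from its replicate, and without it the log2 fold change in KO was -0.64 (FDR 0.00908). A share of 4.56% of its exon length overlaps *Hars*, whose counts rose.

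*Ears2* and *Vars2* lie at the low end, with group means from 1.40 to 6.14 CPM. *Ears2*, for glutamate, fell by 2.0 ± 0.44 in WT and by 1.77 ± 0.44 in KO. *Vars2*, for valine, fell by 1.64 ± 0.56 in WT (FDR 0.0289), a call that was lost with DESeq2, with an offset for GC and length, and without either WT day 0 library or WT day 5 replicate 1. At day 5 *Vars2*, *Ears2*, *Mars2* and *Aars2* had the lowest levels of the 47 genes per kilobase of exon, at 0.26 to 0.45 CPM per kb in WT. *Rars2*, the arginine enzyme, had the highest level of the mitochondrial group, at 64.9 CPM per kb in WT at day 0 and 62.0 at day 5.

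For 12 amino acids the listed genes held 1 cytosolic and 1 mitochondrial enzyme that serve that amino acid alone, which can be set side by side as pairs. The log2 fold change of the cytosolic enzyme was the greater in 12 of 12 pairs in WT and in 12 of 12 in KO. The difference in WT ranged from 0.46 (*Wars* and *Wars2*, tryptophan) to 2.87 (*Vars* and *Vars2*), with a median of 1.28. In KO it ranged from 0.01 (*Wars* and *Wars2*) to 3.03 (*Mars* and *Mars2*, methionine), with a median of 1.34. The differences of 2.87 and 3.03 rest in part on low counts. In WT libraries *Vars* had 17 to 47 counts and *Vars2* 4 to 25. In KO at day 5 *Mars2* had 15 and 26 counts. The leucine pair differed by 1.78 in WT and 1.12 in KO. Both genotypes were measured at the same days but in separate libraries. The pairs share all their libraries, so the counts are a description. Left out of the pairs were the phenylalanine enzyme, whose cytosolic form needs 2 genes, and *Eprs*, which serves both glutamate and proline. The phenylalanine genes did not follow the pairs. In WT the log2 fold change of *Fars2* was 0.17 ± 0.16, above *Farsa* (-0.37) and beside *Farsb* (0.18). In KO it was 0.37 ± 0.16, above both *Farsa* (-0.16) and *Farsb* (0.33). *Eprs* rose by 0.88 ± 0.12 in WT and 0.94 ± 0.12 in KO, above its mitochondrial counterparts *Ears2* and *Pars2* (*Pars2* had log2 fold changes of -0.17 ± 0.25 and 0.29 ± 0.24).

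**Figure D3:**
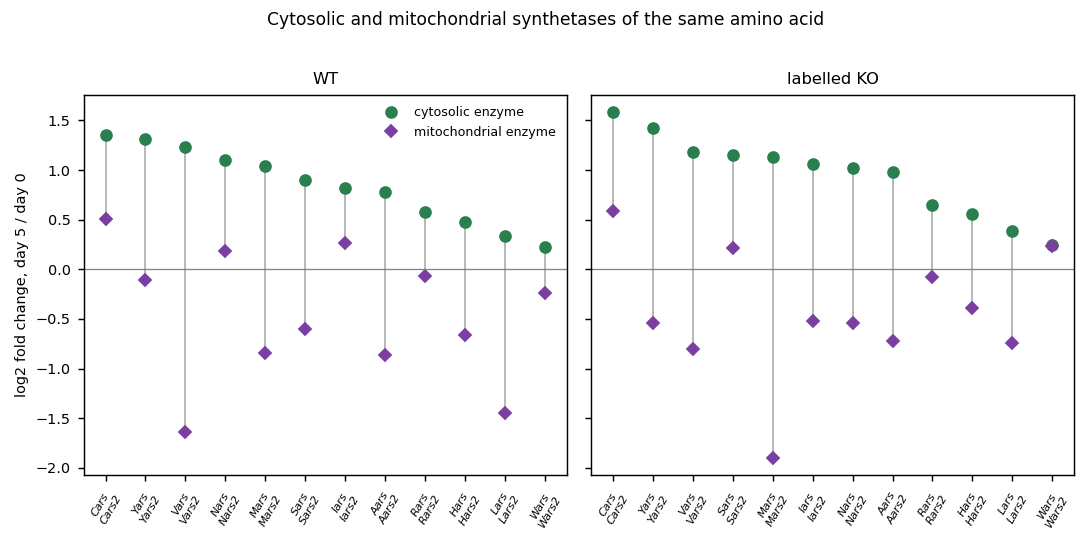
Log2 fold change of day 5 over day 0 (vertical axis) for 12 pairs of synthetases of the same amino acid, in WT (left) and in libraries labelled KO (right). Green circles are cytosolic and purple diamonds mitochondrial enzymes, joined by a line. The circle is the higher point in each of the 12 pairs in both panels, by as little as 0.01 for the tryptophan pair in KO. The phenylalanine genes, which did not follow this order, are not among the pairs.

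All 8 enzymes of amino acid and one-carbon synthesis rose in WT and all 8 in KO, with median log2 fold changes of 1.42 and 1.61. Among them *Asns*, with 1 to 5 counts in the day 0 libraries, passed the filter only through day 5 and could be called only as higher. Scaled by library totals alone, 6 rose in WT and 7 in KO. Their sum was 425 to 534 CPM at day 0 and 1506 to 1922 CPM at day 5.

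*Asns* makes asparagine from aspartate and glutamine (chromosome 6, 7675169 to 7693254, minus strand). It was near 0 before culture, with 3 and 5 counts in the WT libraries and 3 and 1 counts in the KO libraries. At day 5 there were 1934 and 914 counts in WT and 1574 and 1668 in KO, or 341, 220, 290 and 316 CPM. The ratio of depth-scaled counts was 363 in WT, with a 95% interval of 184 to 842, and 1294 in KO, with an interval of 505 to 4751. These intervals cover counting error only. The fitted log2 fold changes were 8.42 ± 0.33 (FDR 8.74e-10) and 10.22 ± 0.36 (FDR 2.83e-10), the largest fitted values of the 47 genes in both genotypes. *Chac1* in WT had no count at day 0, so its fold has only a lower bound and cannot be ranked against *Asns*. Per kilobase it went from 0.30 to 103 CPM per kb in WT. At day 5 it thus stood near *Kars*, the lysine synthetase, at 109 CPM per kb. The WT day 5 libraries spanned 80.5 to 125 CPM per kb for *Asns*, which covers the *Kars* mean. Without the division by exon length, the WT day 5 means were 281 CPM for *Asns* and 488 CPM for *Kars*.

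The serine pathway starts with *Phgdh*, its first enzyme (chromosome 3, 98313170 to 98339990, minus strand). *Phgdh* was at 77.8 and 81.9 CPM in WT at day 0 and 213 and 189 CPM at day 5, and in KO at 72.3 and 74.7 CPM, then 248 and 241 CPM. The days did not overlap, and the log2 fold changes were 1.33 ± 0.13 in WT (FDR 3.08e-06) and 1.73 ± 0.13 in KO (FDR 2.32e-07).

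*Psat1*, the next enzyme (chromosome 19, 15904678 to 15947337, minus strand), rose further. WT libraries had 68.1 and 69.0 CPM at day 0 and 595 and 445 CPM at day 5. KO libraries had 51.0 and 51.4 CPM, then 568 and 537 CPM. Its log2 fold changes were 2.92 ± 0.15 in WT (FDR 1.13e-08) and 3.43 ± 0.15 in KO (FDR 2.37e-09). *Psph*, which completes serine, rose by 0.47 ± 0.15 in WT (FDR 0.0238) and by 0.51 ± 0.15 in KO (FDR 0.0152). In that order of the pathway the middle step had the greatest log2 fold change in both genotypes. Both *Psph* calls were lost under library totals.

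Serine is turned into glycine and a one-carbon unit by *Shmt1* in the cytosol and *Shmt2* in mitochondria. *Shmt2* (chromosome 10, 127517123 to 127522444, minus strand) was at 113 and 125 CPM in WT at day 0 and 175 and 143 CPM at day 5. In KO it was at 104 and 95.4 CPM, then 199 and 191 CPM. The log2 fold changes were 0.42 ± 0.14 in WT (FDR 0.0238) and 0.96 ± 0.14 in KO (FDR 9.25e-05). The WT call did not hold under library totals (0.28, FDR 0.0801), without the filter on low counts (0.40, FDR 0.0880), or without either WT day 0 library or WT day 5 replicate 1 (FDR 0.0573 to 0.150). *Shmt1* rose by 1.5 ± 0.27 in WT and by 1.49 ± 0.26 in KO.

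*Mthfd2*, the mitochondrial enzyme that oxidises the folate-bound unit (chromosome 6, 83305691 to 83325908, minus strand), was at 47.9 and 55.8 CPM in WT at day 0 and 224 and 230 CPM at day 5. KO libraries held 48.6 and 50.3 CPM, then 250 and 249 CPM. Its log2 fold changes of 2.13 ± 0.13 (FDR 6.17e-08) and 2.34 ± 0.13 (FDR 2.05e-08) were greater than those of *Mthfd1l*, which releases formate in mitochondria and rose by 1.11 ± 0.22 in WT and 1.34 ± 0.22 in KO. In no library at day 5 was *Mthfd2* within the day 0 range.

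*Atf4* and its targets rose in all 4 cases in both genotypes. *Chac1*, with 0 to 3 counts in the day 0 libraries, passed the filter on low counts only through day 5. It could therefore be called only as higher. Without it, 25 of 46 genes rose in WT and 27 in KO. *Atf4* (chromosome 15, 80255184 to 80257541, plus strand) was at 72.3 and 71.0 CPM in WT at day 0 and 149 and 138 CPM at day 5. In KO it was at 71.3 and 79.5 CPM, then 168 and 169 CPM. The days did not overlap, with log2 fold changes of 1.0 ± 0.13 in WT (FDR 4.57e-05) and 1.16 ± 0.13 in KO (FDR 1.06e-05). Atf4 protein is regulated mostly at translation, which these libraries do not measure.

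*Trib3*, a pseudokinase (chromosome 2, 152337422 to 152344032, minus strand), was low before culture, at 3.22 and 0.68 CPM in WT and 2.06 and 1.28 CPM in KO. After culture it was at 67.4 and 37.8 CPM in WT and 88.8 and 92.8 CPM in KO. The depth-scaled ratio was 26.2 in WT (95% counting interval 16.9 to 42.6) and 50.1 in KO (35.1 to 74.1). These intervals do not cover the spread between libraries, and the WT day 0 libraries held 18 and 3 counts. The fitted log2 fold changes were 4.66 ± 0.42 (FDR 1.99e-06) and 5.65 ± 0.40 (FDR 1.7e-07). Every day 5 library lay above every day 0 library.

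*Chac1*, a glutathione-degrading enzyme, had 0 and 0 counts in WT at day 0 and 21 and 16 counts at day 5. Set against a floor of 3 counts over the group, that is at least 12.6-fold higher, and the lower 95% counting limit of the ratio itself was 9.73. In KO it had 0 and 3 counts, then 20 and 37 counts, a ratio of 30.3 (95% counting interval 9.87 to 151). *Sesn2*, a sestrin that senses leucine for the growth kinase mTORC1, rose by 2.61 ± 0.52 in WT (FDR 0.00115) and by 2.48 ± 0.39 in KO (FDR 0.000201). Its WT day 0 libraries held only 5 and 3 counts. With *Chac1* at its bound, the median log2 fold change of the 4 genes in WT was 3.13, against 3.64 from the fitted values.

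Other genes of the same pathways were counted from lists that hold none of the 47. Of 13 further synthetase and complex genes, 4 rose in WT and 4 in KO, while 1 and 2 fell. Among those that rose in both were *Aimp1*, *Aimp2* and *Eef1e1*, scaffold proteins of the multisynthetase complex. *Tars2*, for threonine, fell by 0.62 ± 0.15 in WT, and its log2 fold change in KO was -0.18 ± 0.14.

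Of 21 other amino acid synthesis genes 17 were tested, of which 13 rose in WT and 11 in KO, with none lower. *Bcat1*, a branched-chain aminotransferase, rose by 5.58 ± 0.51 in WT and 5.10 ± 0.46 in KO. *Pycr1*, the last enzyme of proline synthesis, rose by 4.51 ± 0.43 and 4.56 ± 0.39. *Ass1*, which joins citrulline to aspartate, rose by 1.68 in WT and 1.92 in KO.

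Of 19 other folate and one-carbon genes 13 were tested, of which 4 rose and 2 fell in each genotype. *Tyms*, which makes thymidylate, rose by 2.92 in WT and by 3.04 in KO. *Mtr*, the methionine synthase, fell by 0.94 in WT and by 0.81 in KO. *Sfxn1*, a mitochondrial serine carrier, rose by 1.38 and 1.88.

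Among 20 genes of the integrated stress response, the pathway around eIF2, 16 were tested. In WT 9 rose and 2 fell, and in KO 8 rose and 3 fell. *Ddit3*, a stress transcription factor, rose by 1.22 in WT and 1.62 in KO. *Stc2*, a secreted glycoprotein, rose by 3.99 ± 0.25 in WT and 5.44 ± 0.28 in KO. *Nupr1* had 1 and 1 counts in WT and none in KO at day 0, and 63 and 37 in WT and 89 and 73 in KO at day 5. The sestrins *Sesn1* and *Sesn3* fell, by 1.80 and 1.07 in WT and by 1.60 and 1.47 in KO, where their relative *Sesn2* rose.

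Of 11 amino acid carriers 10 were tested, of which 4 rose in each genotype and 1 fell in KO. *Slc7a5* and *Slc3a2*, the light and heavy chain of the large neutral amino acid carrier, rose by 2.34 and 1.17 in WT and by 1.93 and 1.80 in KO. Of 9 elongation factors, 1 rose and 1 fell in WT, and 6 rose in KO. The difference between these responses passed the interaction test for none of the 9 (edgeR quasi-likelihood test, smallest FDR 0.142, 4 at an unadjusted p under 0.05). At day 0 the factors summed to 5174 to 5327 CPM in WT and 4331 to 4394 CPM in KO. None was called between genotypes there (edgeR quasi-likelihood test), though the smallest FDR was 0.0504. Of the 9, 4 (44.4%) were at an unadjusted p under 0.05, beside 13.8% of all tested genes, and 1 was higher in KO. The background for these counts is the 24.7% of tested genes that rose and the 23.6% that fell in WT, and 26.2% and 24.0% in KO.

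Between genotypes, the question was whether the KO label goes with another level of these genes before or after culture. None of the 47 genes was called at day 0, at day 5, or for the difference between the 2 culture responses (edgeR quasi-likelihood test). DESeq2 also called none. Over all tested genes 1.80% were called at day 0, 1.63% at day 5 and 0.159% for the interaction. A count of 0 among 47 genes is near those shares and does not set these genes apart. At an unadjusted p under 0.05 there were 3 genes at day 0, 7 at day 5 and 6 for the interaction, or 6.38%, 14.9% and 12.8% of the 47. The corresponding shares of all tested genes were 13.8%, 14.1% and 12.4%. Summed levels of marker lists also differed with the label. The gamma delta list summed to 62.2 and 93.4 CPM in WT and 158.7 and 160.0 CPM in KO at day 0, and to 346.9 and 321.2 CPM in WT and 513.6 and 611.4 CPM in KO at day 5. The B cell list, nearly all *Cd79b*, was at 124.9 and 123.7 CPM in WT and 143.6 and 167.9 CPM in KO at day 0, and at 67.6 and 68.9 CPM against 81.1 and 84.6 CPM at day 5. Neither list overlapped between genotypes at either day. The CD8 and CD3 list did not overlap either, and was lower in KO at day 0 (9521 and 9629 against 10683 and 9809 CPM). At day 5 it was higher in KO (6871 and 6858 against 6411 and 6160 CPM). Lists of CD4 T cell markers at day 0, and of myeloid and natural killer markers at day 5, also did not overlap. With 2 libraries in a group, such a gap can arise without a real difference. The part of these lists in the genotype values was not tested. Without *Chac1*, the log2 differences between KO and WT ran from -1.69 to 1.33 at day 0 and from -0.62 to 1.20 at day 5, with medians of -0.09 and 0.08.

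**Figure D4:**
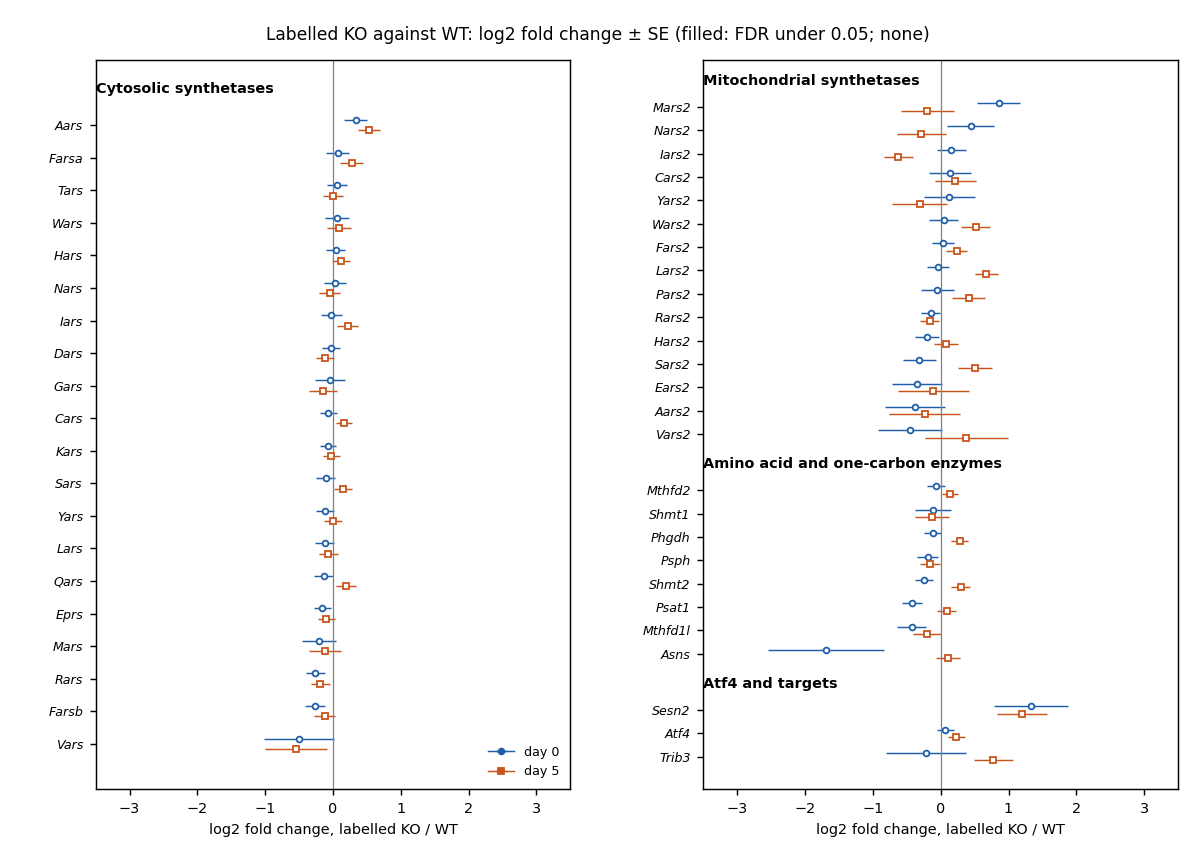
Log2 fold change of libraries labelled KO over WT (horizontal axis) with its SE for 46 genes, at day 0 (blue circles) and at day 5 (orange squares), grouped by role. *Chac1* is left out because its counts at day 0 were at or under the floor in both genotypes. No point is filled, since none passed an FDR of 0.05, and most lie within 1 unit of 0. *Asns* at day 0 (-1.69) rests on 8 counts in WT and 4 in KO.

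At day 0 *Psat1* had the smallest p, with 68.1 and 69.0 CPM in WT and 51.0 and 51.4 CPM in KO. The KO values were lower in both libraries, by 0.42 ± 0.15 on the log2 scale (95% interval of the log2 difference -0.75 to -0.10, FDR 0.225). *Mars2*, the mitochondrial methionine enzyme (chromosome 1, 55237177 to 55248470, plus strand), was at 8.94 and 6.78 CPM in WT and 12.4 and 16.5 CPM in KO, a log2 difference of 0.86 ± 0.32 (interval 0.17 to 1.55, FDR 0.243). At day 5 *Mars2* was at 4.23 and 4.58 CPM in WT and 2.76 and 4.92 CPM in KO, and the genotypes overlapped. Neither difference passed the test over all genes.

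At day 5 *Lars2* came closest to a call. With 26.5 and 21.4 CPM in WT and 37.5 and 39.2 CPM in KO, it had a log2 difference of 0.67 ± 0.17 (interval 0.30 to 1.05, FDR 0.0761). *Aars*, the alanine enzyme (chromosome 8, 111033144 to 111057664, plus strand), was at 96.7 and 73.0 CPM in WT and 126 and 120 CPM in KO. The log2 difference was 0.53 ± 0.16 (interval 0.18 to 0.88, FDR 0.136). At day 0 *Aars* had been at 45.4 and 54.0 CPM in WT and 62.6 and 62.6 CPM in KO, also without overlap (0.33 ± 0.17, FDR 0.399). *Trib3* at day 5 was higher in both KO libraries, with a log2 difference of 0.78 ± 0.29 (FDR 0.230), and was called without the filter on low counts (FDR 0.0241). *Sesn2* had a log2 difference of 1.33 ± 0.55 at day 0 and 1.20 ± 0.37 at day 5 (FDR 0.301 and 0.142), from 0.68 and 0.89 CPM in WT against 1.80 and 2.39 CPM in KO at day 0, and 3.61 and 6.17 CPM against 10.2 and 12.7 CPM at day 5.

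For *Atf4* and the enzymes the intervals at day 5 bound how large a genotype difference could be. They were -0.05 to 0.51 for *Atf4*, -0.29 to 0.50 for *Asns*, -0.21 to 0.39 for *Psat1* and -0.13 to 0.41 for *Mthfd2*. The log2 difference of *Phgdh* was 0.28 (interval 0.01 to 0.55, FDR 0.323), with both KO libraries above both WT libraries. For *Shmt2* it was 0.29 ± 0.14 (FDR 0.364), again without overlap. None of these 6 genes passed the test at either day.

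The interaction compares the 2 culture responses directly. Its smallest p belonged to *Lars2*, whose change was 0.71 ± 0.23 log2 units less negative in KO (interval 0.20 to 1.22, FDR 0.252), and to *Shmt2*, whose rise was greater in KO by 0.54 ± 0.19 (interval 0.12 to 0.96, FDR 0.299). *Psat1* and *Phgdh* gave interactions of 0.51 ± 0.20 and 0.40 ± 0.18 (FDR 0.341 and 0.382). The culture responses of *Atf4* differed by 0.16 ± 0.18 (FDR 0.790).

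In the other lists 78 genes were tested, of which 2 were called between genotypes at day 0 (2.56%) and 1 at day 5 (1.28%), beside 1.80% and 1.63% of all tested genes. Each was named after its values had been seen. At day 0 *Stc2* was lower in the libraries labelled KO by 1.79 ± 0.37 (FDR 0.0290), at 22 and 13 counts in WT and 12 and 5 in KO. *Slc3a2* was lower there by 0.81 ± 0.18 (FDR 0.0407), at 50.3 and 36.0 CPM against 23.4 and 26.1 CPM. At day 5 *Aldh18a1*, an early enzyme of proline synthesis, was higher in the libraries labelled KO by 0.64 ± 0.13 (FDR 0.0346), at 227 and 248 CPM against 157 and 149 CPM.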

How the data were processed

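RNA-seq counts of 8 libraries of mouse splenic CD8+ T cells were used. The authors deposited raw counts of reads per gene symbol for each library, one table each, which end with the totals of reads that HTSeq did not assign. Per the labels, total RNA was extracted with Trizol and a Direct-zol kit, made into libraries with an NEBNext Ultra RNA kit, and sequenced as 50 bp reads. The submitters' processing notes name HISAT2 2.1.0, HTSeq 0.11.1 and mm10 (GRCm38). The annotation and strand setting are not given in the sources used here, so reads of overlapping genes on opposite strands may be shared. Reads assigned to genes were 21.2% to 24.5% of all counted. Those aligned to several places were 31.8% to 34.5% at day 0 and 35.7% to 37.4% at day 5. Those totals were left out of library sizes and tests.

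Counts were analysed in R 4.3.3 with edgeR 4.0.16: filterByExpr with a minimum count of 10 (12597 genes), TMM scaling, 1 mean per group over all 8 libraries, and the quasi-likelihood test, two-sided, with Benjamini-Hochberg adjustment over all tested genes (FDR under 0.05). Common biological variation was 15.0%. The SE of a log2 fold change was taken from the F statistic, and 95% intervals from the test's degrees of freedom. Levels per kilobase used exon lengths of GENCODE M21 on GRCm38, which also gave gene positions. The exon length was the union of all annotated exons of a gene, so these levels depend on the exons annotated. Ratios of low counts used exact intervals on counts scaled by depth, with a floor of 3 counts over a group. Intervals cover counting error only for those ratios. Promoter letters came from RefSeq sequences of GRCm38.p6. The test was tested on simulated data.

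Groups came from sample titles. Replicates are numbered 1 and 2, and nothing says that they came from separate animals or cultures, so p-values measure the spread between these libraries, which may be technical. The members and lists were chosen with earlier results of these data known. Given for every library were members called between genotypes, the 3 largest called changes in each direction per role in WT with at least 10 CPM, *Atf4*, *Asns*, *Phgdh*, *Psat1*, *Shmt2* and *Mthfd2*, and the 2 smallest p per genotype comparison. *Sesn2*, *Chac1*, *Trib3* at day 5 and genes of other lists were named after their values were seen. Alternatives were DESeq2 1.42.0, DESeq2 size factors, library totals, no filter, at least 5 CPM in 2 libraries, the edgeR 4 form of the fit, a replicate block, fits of the 4 libraries compared, leaving out each library, an offset for GC content and exon length, and thinning to 4170126 counts. The last 2 were chosen after seeing the data. A few items are not reported here.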

Additional observations from a re-analysis of the deposited data

How the results depend on the processing

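The number of genes called during culture was 30 in WT (range 28 to 33 over the alternatives that kept all libraries) and 31 in KO (30 to 35). Leaving out 1 library at a time gave 24 to 33 in WT and 29 to 33 in KO. The lowest WT counts, 24 and 25, came without WT day 0 replicate 1 or 2. For genotype and interaction the count was 0 under every alternative but one: without the filter on low counts, 1 gene (*Trib3*) was called at day 5. Library totals moved the calls of all tested genes from 3296 higher and 3029 lower to 2755 and 3936 in KO, and from 3112 and 2969 to 2668 and 3560 in WT.

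Replicate numbers were not taken to pair the samples, since deviations of same-numbered libraries correlated at 0.118 (WT) and 0.228 (KO) between days and at 0.004 and -0.017 between genotypes. With the replicate block 31 genes were called in WT and 33 in KO, and 0 between genotypes.

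Among named genes, 4 values without a call changed sign: *Atf4* in the interaction with the GC and length offset (-0.049), *Mthfd2* at day 0 without WT day 0 replicate 2 (0.040), and *Asns* (-0.17) and *Psat1* (-0.11) at day 5 without WT day 5 replicate 2. Leaving out 1 library at a time, these 3 KO against WT values ranged from -0.18 to 0.040, from -0.17 to 0.47 and from -0.11 to 0.32. The *Hars2* call in WT was lost without WT day 0 replicate 2 (FDR 0.0589), and *Hars2* in KO gained a call under library totals (-0.58, FDR 0.0201). *Hars*, *Rars*, *Tars*, *Psph* and *Vars2* in WT, and *Lars*, *Tars* and *Psph* in KO, lost their calls under 1 or more alternatives. The cause was not tested. With each library thinned to the smallest total, 33 genes were called in WT and 35 in KO.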
